A study of Mus musculus with 4 samples.

Results

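The genes described here make, remove and use cyclic AMP: the adenylyl cyclases, the phosphodiesterases, the subunits of protein kinase A (PKA) and the A-kinase anchoring proteins that hold PKA in place. They are all genes of the deposited tables whose symbol is Adcy with a number, is Pde with a number and at most 1 letter from a to d, or starts with Prkar, Prkac or Akap and a number. The rule uses names and no measured value, and it finds 55 of 24421 genes: 10 Adcy, 23 Pde, 4 Prkar, 2 Prkac and 16 Akap symbols. The comparison is between 2 libraries labelled excitatory and 2 labelled inhibitory, made from mouse brain for a study of ERK signalling in a Noonan syndrome model. The excitatory libraries hold cells positive for αCaMKII, the calcium-dependent kinase made by glutamatergic neurons of the forebrain, while the inhibitory libraries hold cells positive for vGAT, the vesicular GABA transporter. The colonies carried αCaMKII-Cre, where a Camk2a promoter drives the recombinase, or vGAT-IRES-Cre, where it is made from the gene of vGAT, and both were bred to wild-type C57Bl/6J mice. Male mice of 3 to 5 months were used, each library is 100 fluorescent cells picked by hand, and the labels name no treatment and no Noonan mutation for any of the 4 libraries. They do not say what made the cells fluorescent or whether the libraries of a label came from separate animals. Each p-value therefore reflects how far libraries of a label lie apart, and some or all of that spread may be technical. The error used for a gene is also drawn partly from all genes tested.

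Cyclic AMP is made from ATP by adenylyl cyclases, which G protein-coupled receptors switch on through Gs and Golf and off through Gi, and some of which calcium also drives. It binds the regulatory subunits of PKA, a complex of paired regulatory and catalytic subunits, and frees the catalytic subunits to phosphorylate their targets, among them the transcription factor CREB. Phosphodiesterases break cyclic AMP, cyclic GMP or both, and anchoring proteins place PKA beside receptors, channels, organelles and phosphodiesterases. In neurons this pathway is best known for its part in long-lasting synaptic plasticity and memory.

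A deposited value is the log2 of normalized reads. From the step between low values, libraries were estimated to hold 61900000 to 74200000 reads, with 12609 to 12798 genes above 0. The lowest value above 0 stood for 1 read in excitatory and 2 reads in inhibitory libraries, so a value listed at 0 in an inhibitory library can still hold a read. The highest gene of all, the myelin gene Mbp, had the same 21.33 in each library, so a deposited difference is also, by construction, a difference relative to Mbp. The median difference over the 13619 genes tested was 0.52 (log2, excitatory minus inhibitory). After median-of-ratios scaling, which moves that median to -0.01, values are called scaled below. Markers did not all follow the labels. Camk2a had 16.53 and 16.46 in excitatory libraries, against 15.60 and 15.66 in inhibitory libraries, and Slc17a7, a vesicular glutamate transporter gene, had 12.19 and 12.06 in excitatory libraries, against 11.99 and 11.67 in inhibitory libraries. The GABA-synthesis gene Gad1 had 10.91 and 11.17 in excitatory against 11.45 and 11.59 in inhibitory libraries, and Gad2 had 9.73 and 10.39 in excitatory against 10.14 and 10.13 in inhibitory libraries. Slc32a1, which encodes vGAT, had 0 in all 4 tables. Excitatory and inhibitory are therefore used as the libraries' labels only. The summed level of 8 microglial and leukocyte markers was 0.0303% and 0.0354% of the excitatory libraries, against 0.115% and 0.0919% of the inhibitory libraries, and 5 of the 8 were higher in inhibitory libraries. For 8 oligodendrocyte markers the sums were 3.72% and 3.78% in excitatory against 5.13% and 5.04% in inhibitory libraries, while 5 of 8 were higher in excitatory libraries. Mbp is among these 8 and made up most of each sum. With its value the same everywhere, the sums mainly follow the linear library totals. These totals were 80200000 and 77500000 in excitatory against 53400000 and 54400000 in inhibitory libraries. Mbp, Mog and Mobp did not pass, and none of the 8 was called higher in inhibitory libraries in the deposited values. For 8 astrocyte markers the sums were 2.58% and 2.63% in excitatory against 2.37% and 2.19% in inhibitory libraries, with 6 of 8 higher in excitatory libraries. After scaling, 7 of 8 microglial and leukocyte markers were higher in inhibitory libraries, 5 of 8 oligodendrocyte markers were higher in excitatory and 2 in inhibitory libraries, and for astrocyte markers these counts were 3 and 2. Of 6 endothelial markers, Cldn5, Tek, Ly6c1 and Slco1a4 were at 0 in all 4 libraries. The part of these cell types in the results was not tested, and in such pools fewer cells of a type and less RNA per cell cannot be told apart.

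Cyclic AMP genes differed between the labels about as often as other genes, and in both directions. Of the 55 members 43 reached a value of 1 in 2 or more libraries and were tested, and 31 of these (72.1%) passed the moderated linear model of limma (Benjamini-Hochberg adjusted p under 0.05), where 71.8% of all genes tested passed. In the excitatory libraries 19 members were higher, where 45.0% of all genes tested were, and in inhibitory libraries 12 were higher, where 26.8% of all genes were. After scaling 27 passed (background 65.7%), 13 higher in excitatory (background 32.3%) and 14 in inhibitory libraries (background 33.4%), so the balance between directions depends on the scaling. In both scalings 25 of the 43 tested members passed with the same direction, 13 higher in excitatory and 12 in inhibitory libraries. Of all 13619 genes tested 8047 did so, 4392 higher in excitatory and 3655 in inhibitory libraries. Over the 43 tested members the median difference was 0.41 (0.52 over all genes tested), or -0.13 after scaling (-0.01 over all genes tested), and the median size of a difference was 1.71 (1.62 over all genes tested). With 1 of the 4 libraries left out 17 to 20 members passed: 18 without excitatory 1, 20 without excitatory 2, 17 without inhibitory 1 and 18 without inhibitory 2. Over all genes tested 45.2%, 44.8%, 47.4% and 48.1% passed in the same order. The 11 that passed whichever library was left out were Akap9, Pde4a, Pde6d, Pde7b, Pde8b, Prkar1b and Prkar2b, higher in excitatory libraries, and Akap8, Akap12, Pde3b and Pde10a, higher in inhibitory libraries. How many of all genes tested passed in this way was not counted, so the list is not set against other genes. Of the genes it names, Prkar2b, Akap12 and Pde3b were at 0 in both libraries of 1 label. That pair has no spread, so leaving out a library of the other label is a weak check for them. Of the 12 members not tested, Adcy4, Adcy6, Adcy10, Akap3, Akap4, Akap14, Pde6b, Pde6c, Pde11a and Pde12 were listed at 0 in all 4 libraries, Pde3a had 0.37 and 0.30 in excitatory against 0 and 0 in inhibitory libraries, and Pde6a had 1.16 in inhibitory 1 and 0 elsewhere.

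**Figure D1:**
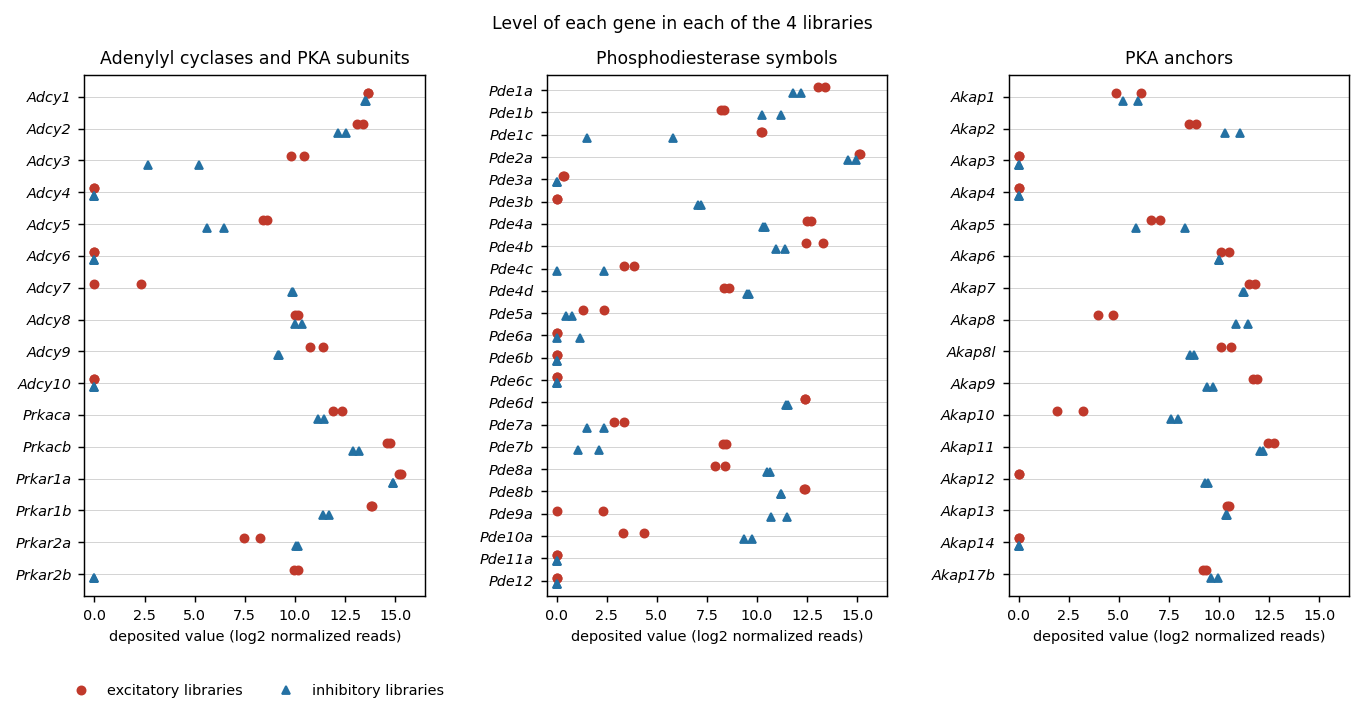
Deposited value (log2 normalized reads, horizontal axis) of each of the 55 genes in each library, in panels for adenylyl cyclases with PKA subunits, phosphodiesterase symbols and anchors. Circles are the excitatory and triangles the inhibitory libraries, and Prkar2b, Akap12 and Pde3b are the genes at 0 in both libraries of 1 label and above 7 in both of the other.

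**Figure D2:**
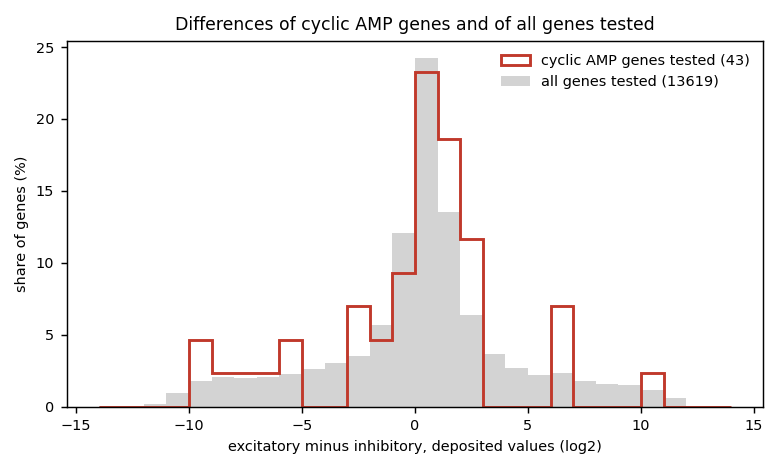
Share of genes (vertical axis, %) by difference in deposited value (horizontal axis, log2, excitatory minus inhibitory) for the 43 cyclic AMP genes tested (outline) and all 13619 genes tested (grey). Both are centred above 0, with medians of 0.41 and 0.52, and both reach beyond 9 on either side.

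Levels were compared between genes only after dividing the linear value by the summed length of a gene's exons. On that scale the regulatory subunit gene Prkar1a was the first and the phosphodiesterase gene Pde2a the next of all members in every library. In normalized reads per kb of exon, Prkar1a had 8620 and 9140 in excitatory libraries, against 7110 and 6950 in inhibitory libraries, and Pde2a had 5860 and 5600 in excitatory libraries, against 5100 and 3940 in inhibitory libraries. The same order of these genes therefore held under both labels, while the genes ranked below them differed.

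Among the adenylyl cyclases, Adcy1 and Adcy2 made up most of the level per kb in every library, and the less abundant Adcy3, Adcy5, Adcy7 and Adcy9 differed most between the labels. Of 7 cyclases tested 4 were higher in excitatory libraries (Adcy2, Adcy3, Adcy5 and Adcy9) and 1 in inhibitory libraries (Adcy7). These 5 calls are 71.4% of those tested (background 71.8%), and scaled values gave 3 and 2 calls. Adcy1, a cyclase stimulated by calcium and calmodulin, had 13.64 and 13.62 in excitatory libraries, against 13.53 and 13.51 in inhibitory libraries. Its difference of 0.11 (SE 0.094 and adjusted p = 0.339) did not pass, and it was -0.43 after scaling (adjusted p = 0.0181), so its direction turns with the scaling. Adcy8, the other cyclase best known for calcium stimulation, had 10.02 and 10.16 in excitatory libraries, against 10.35 and 9.98 in inhibitory libraries. These ranges overlapped, and the difference of -0.08 (SE 0.22 and adjusted p = 0.779) did not pass in either scaling (scaled adjusted p = 0.0832). Adcy2, a cyclase that G protein βγ subunits stimulate, had 13.11 and 13.40 in excitatory libraries, against 12.54 and 12.14 in inhibitory libraries. It was 1.88-fold higher in excitatory libraries (log2 difference 0.91, SE 0.2, adjusted p = 0.0122), but this did not pass after scaling (adjusted p = 0.215) or without excitatory 1, excitatory 2, inhibitory 1 or inhibitory 2 (adjusted p = 0.112, 0.164, 0.0692 and 0.117).

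Adcy3, the cyclase of olfactory neurons and of neuronal primary cilia, had 10.47 and 9.82 in excitatory libraries, against 2.69 and 5.20 in inhibitory libraries. Both excitatory values were well above both inhibitory values, which themselves lay 2.51 apart, and the difference was 6.21 (SE 0.9 and adjusted p = 0.0032). That call was lost without excitatory 1 or excitatory 2 (adjusted p = 0.128 and 0.112), and the difference was 4.95 without inhibitory 1 and 7.46 without inhibitory 2. Exons of the gene Cenpo on the opposite strand overlap 22.1% of the exon length of Adcy3. Cenpo had 9.43 and 9.01 in excitatory libraries against 7.14 and 7.45 in inhibitory libraries, and with no strand in the library kits the reads of the pair cannot be told apart where they overlap. Adcy5, the main cyclase of the striatum, had 8.61 and 8.40 in excitatory libraries, against 5.63 and 6.45 in inhibitory libraries, a 5.53-fold difference (log2 difference 2.47, SE 0.39, adjusted p = 0.00419) that was 3.77-fold in scaled values (adjusted p = 0.0102) and was lost without excitatory 1 or excitatory 2 (adjusted p = 0.105 and 0.0943). Adcy9 had 10.75 and 11.41 in excitatory libraries, against 9.15 and 9.20 in inhibitory libraries, 3.75-fold higher in excitatory libraries (log2 difference 1.91, SE 0.28, adjusted p = 0.00349) and 2.58-fold in scaled values (adjusted p = 0.0157), a call lost without inhibitory 1 or inhibitory 2 (adjusted p = 0.0975 and 0.0933). Adcy7, another cyclase responsive to βγ subunits and prominent in immune cells, went the other way. It had 0 and 2.31 in excitatory libraries, against 9.84 and 9.90 in inhibitory libraries, so no fold is given against a label with a library at 0. Its difference was -8.71 (SE 0.83 and adjusted p = 7.93e-04), and the call was lost without inhibitory 1 or inhibitory 2 (adjusted p = 0.0672 and 0.0667). The difference was -7.56 without excitatory 1 and -9.87 without excitatory 2. Like Adcy7, 5 of 8 microglial and leukocyte markers were higher in inhibitory libraries (7 of 8 after scaling). Ptprc, a marker of all leukocytes, had 0 and 0 in excitatory against 12.01 and 11.80 in inhibitory libraries, while P2ry12, a marker of microglia, had 12.82 and 12.86 in excitatory against 12.71 and 12.67 in inhibitory libraries. Their part in the Adcy7 result was not tested.

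PKA subunits were all detected, and each of the 6 passed the test in the deposited values, where 71.8% of all genes tested did. Of the 4 regulatory genes Prkar1a, Prkar1b and Prkar2b were higher in excitatory and Prkar2a in inhibitory libraries, and both catalytic genes were higher in excitatory libraries. After scaling Prkar1b, Prkar2b, Prkar2a and Prkacb passed in the same directions and Prkar1a and Prkaca did not pass (background 65.7%). The regulatory subunits fall into type I, which blocks the catalytic site with a stretch that cannot be phosphorylated, and type II, whose matching stretch carries a serine that PKA itself phosphorylates. The stretches are shown because type is the feature by which these 4 genes are grouped below. They are coding bases of GENCODE M21 transcripts on GRCm38, found by a search for arginine, arginine, any residue, then alanine, glycine or serine, then isoleucine or valine within the first 130 codons. Capitals mark the codon of the blocking residue or the phosphorylated serine.
Prkar1a: cgccgaggtGCTatc
Prkar1b: cggcggggcGGTgtg
Prkar2a: agacgagtaTCAgtc
Prkar2b: aggcgtgccTCGgtc
The capital codon reads alanine in Prkar1a, glycine in Prkar1b and serine in Prkar2a and Prkar2b.

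Prkar2b, the type IIβ subunit that is abundant in brain, showed the clearest contrast of the PKA genes. It had 10.16 and 9.94 in excitatory libraries, against 0 and 0 in inhibitory libraries, a difference of 10.05 (SE 0.33 and adjusted p = 9.49e-05). It passed in both scalings. The inhibitory pair at the floor has no spread, so leaving out an excitatory library is a weak check here. The difference was 9.94 without excitatory 1 and 10.16 without excitatory 2. The gene lies at positions 31958476 to 32061296 of chromosome 12 of GRCm38, the build also called mm10. Prkar2a, the type IIα subunit, had the opposite order, with 8.26 and 7.47 in excitatory libraries, against 10.13 and 10.03 in inhibitory libraries. It was 4.64-fold higher in inhibitory libraries (log2 difference -2.22, SE 0.34, adjusted p = 0.00393) and 6.71-fold in scaled values (adjusted p = 0.00242), a call lost without inhibitory 1 or inhibitory 2 (adjusted p = 0.106 and 0.0992). Prkar1b, the type Iβ subunit found mainly in neurons, had 13.79 and 13.83 in excitatory libraries, against 11.68 and 11.40 in inhibitory libraries. It was 4.8-fold higher in excitatory libraries (log2 difference 2.26, SE 0.15, adjusted p = 2.59e-04), and 3.31-fold in scaled values (adjusted p = 0.00125), and it passed whichever library was left out. Prkar1a, the widely used type Iα subunit, differed least of the 6, with 15.19 and 15.27 in excitatory libraries, against 14.91 and 14.87 in inhibitory libraries. That 1.26-fold difference (log2 difference 0.34, SE 0.074, adjusted p = 0.013) was smaller than the median shift of all genes, turned to -0.20 after scaling (adjusted p = 0.123) and was lost without excitatory 1, excitatory 2, inhibitory 1 or inhibitory 2 (adjusted p = 0.0524, 0.0683, 0.0752 and 0.0827).

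Within a library, shares do not depend on how the library was scaled. Of the summed regulatory level per kb, Prkar1a made up 67.9% and 69% in excitatory libraries, against 87.3% and 88.8% in inhibitory libraries. Prkar1b made up 29.3% and 28.8% in excitatory libraries, against 10.6% and 9.1% in inhibitory libraries. For Prkar2b the share was 2.48% and 2.03% in excitatory libraries, against 0% and 0% in inhibitory libraries, and for Prkar2a it was 0.378% and 0.21% in excitatory libraries, against 2.15% and 2.1% in inhibitory libraries. The type II genes together held 2.85% and 2.23% in excitatory libraries, against 2.15% and 2.1% in inhibitory libraries, so a similar small share came mostly from Prkar2b under one label and from Prkar2a alone under the other. That near equality rests on the length correction, since without it the means were 2.42% in excitatory and 3.14% in inhibitory libraries. The shares are given as a description, and their differences were not tested.

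The catalytic subunits carry the kinase activity, and Prkacb is the form best known in neurons. Their activation loops are shown to mark how alike the 2 genes are where the kinase must be phosphorylated to be active. The stretches are again GENCODE M21 coding bases, with the codon of that threonine in capitals.
Prkaca: acttggACCttgtgtgggacccct
Prkacb: acatggACAttgtgtggcacccca
They share 20 of 24 bases. Prkacb had 14.72 and 14.61 in excitatory libraries, against 12.87 and 13.17 in inhibitory libraries, 3.11-fold higher in excitatory libraries (log2 difference 1.64, SE 0.14, adjusted p = 5.60e-04) and 2.15-fold in scaled values (adjusted p = 0.00156), a call lost without excitatory 1 (adjusted p = 0.052). Prkaca had 11.88 and 12.34 in excitatory libraries, against 11.15 and 11.45 in inhibitory libraries. It was 1.76-fold higher (log2 difference 0.81, SE 0.23, adjusted p = 0.0279), which did not pass after scaling (adjusted p = 0.348) or without excitatory 1, excitatory 2, inhibitory 1 or inhibitory 2 (adjusted p = 0.0821, 0.164, 0.224 and 0.142). Of the catalytic level per kb, Prkacb held 66.9% and 57.7% in excitatory libraries, against 48.3% and 48.4% in inhibitory libraries. Without division by length its share was 87.7% and 82.8% in excitatory libraries, against 76.7% and 76.8% in inhibitory libraries, so which catalytic gene leads under the inhibitory label depends on the length correction. The summed regulatory level per kb was 2.77 and 2.68 times the catalytic level in excitatory libraries, against 4.6 and 3.6 times in inhibitory libraries (means 1.77 in excitatory and 3.20 in inhibitory libraries without division by length). These are transcript levels, and the amounts of the proteins were not measured.

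**Figure D3:**
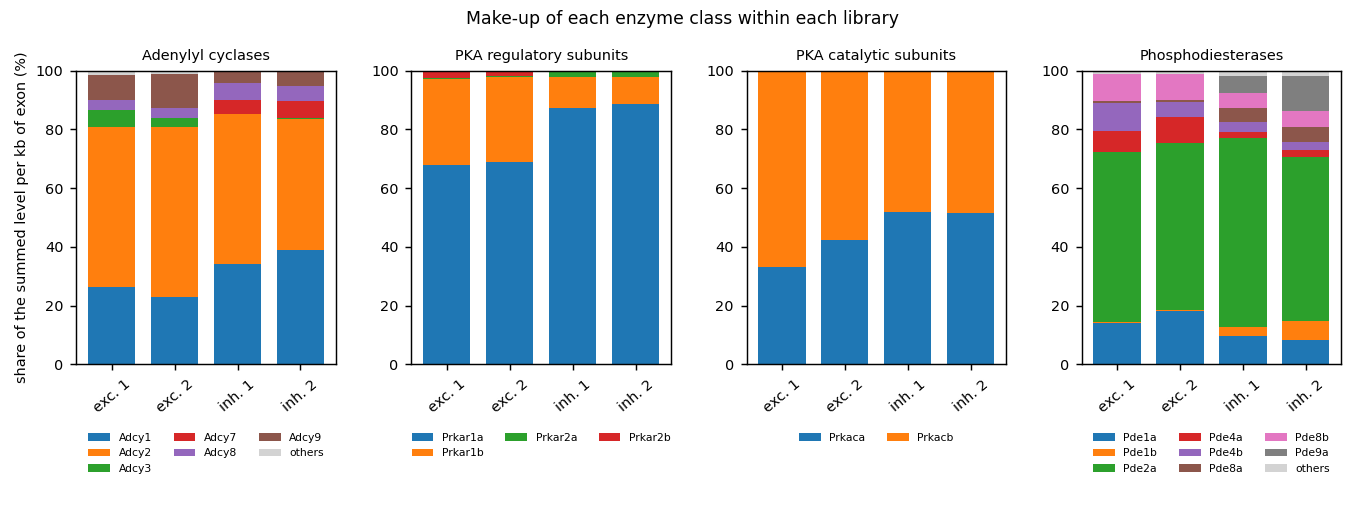
Share of each gene in the summed level per kb of exon of its class (vertical axis, %) in each library (horizontal axis, excitatory libraries left of inhibitory), for adenylyl cyclases, PKA regulatory subunits, PKA catalytic subunits and phosphodiesterases without Pde6d and Pde12. Prkar1b takes a larger share in excitatory libraries (29.3% and 28.8%) than in inhibitory libraries (10.6% and 9.1%), and Pde2a takes over 50% of the phosphodiesterase level in all 4. Genes under 2% in every library are pooled as others.

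Phosphodiesterase genes were found on both sides of the comparison, also within a family. Of 17 tested 7 were higher in excitatory libraries (Pde1a, Pde1c, Pde4a, Pde4b, Pde6d, Pde7b and Pde8b), 6 were higher in inhibitory libraries (Pde1b, Pde3b, Pde4d, Pde8a, Pde9a and Pde10a), and Pde2a, Pde4c, Pde5a and Pde7a did not pass. These 13 calls are 76.5% of those tested, near the background of 71.8%, and scaled values gave 5 and 6 calls (64.7%, background 65.7%). The Pde1, Pde4 and Pde8 families each had calls in both directions. A stretch of the catalytic site, histidine, aspartate, any pair of residues, histidine, any 4 residues and then asparagine or glutamine, was searched for in the GENCODE M21 coding sequence of each Pde symbol and found in 21 of 23. It is shown for genes at the centre of the results, with the codons of the fixed residues in capitals, because it tells the cyclic nucleotide enzymes from other genes that share the symbol.
Pde1b: CATGACtatgagCACacaggcacaaccAAC
Pde1c: CATGACtatgaaCATactggaactacaAAC
Pde2a: CATGACctggacCACagaggcacaaacAAC
Pde3b: CACGATtacgatCACccaggaagaacaAAT
Pde4a: CATGACgtggacCACcctggcgtctccAAC
Pde4d: CATGATgtggacCATcctggggtgtcaAAT
Pde7b: CATGACgtggacCACccaggggtcaacCAG
Pde9a: CATGACctggacCACccagggtacaacAAT
Pde10a: CATGACctggacCACaggggcttcagtAAC
The last codon is that of glutamine in Pde7a and Pde7b. It is that of asparagine in the other matches, apart from Pde6a, whose codon is not reported here. The symbols with no match were Pde6d, whose product is a chaperone of lipid-anchored proteins, and Pde12, whose product is an enzyme that breaks RNA in mitochondria, so neither is known as an enzyme of cyclic nucleotides. Leaving both out gives 30 of 42 tested members passing in place of 31 of 43.

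The Pde1 enzymes, which calcium and calmodulin switch on, had calls in both directions. Pde1a had 13.05 and 13.39 in excitatory libraries, against 12.19 and 11.79 in inhibitory libraries. It was 2.34-fold higher in excitatory libraries (log2 difference 1.23, SE 0.21, adjusted p = 0.00511), did not pass after median-of-ratios scaling (adjusted p = 0.0591) and was lost without excitatory 1, excitatory 2, inhibitory 1 or inhibitory 2 (adjusted p = 0.0794, 0.109, 0.0601 and 0.0871). Pde1b went the other way, with 8.33 and 8.19 in excitatory libraries, against 10.24 and 11.20 in inhibitory libraries, a 5.51-fold difference (log2 difference -2.46, SE 0.38, adjusted p = 0.00383) that was 7.97-fold in scaled values (adjusted p = 0.0023) and was lost without excitatory 1 or excitatory 2 (adjusted p = 0.11 and 0.118). Pde1c had 10.27 and 10.19 in excitatory libraries, against 1.50 and 5.80 in inhibitory libraries. The excitatory values were alike and the inhibitory ones lay 4.30 apart, so the difference of 6.58 (SE 1.5 and adjusted p = 0.0131) has a wide error, and it was lost without excitatory 1 or excitatory 2 (adjusted p = 0.213 and 0.209). It was 4.43 without inhibitory 1 and 8.73 without inhibitory 2. Pde2a, an enzyme that cyclic GMP stimulates to break cyclic AMP, was close to level, with 15.14 and 15.07 in excitatory libraries, against 14.94 and 14.56 in inhibitory libraries. Its difference of 0.35 (SE 0.14 and adjusted p = 0.0813) did not pass and was -0.18 after scaling (adjusted p = 0.399). The annotated gene Gm45837 on the same strand overlaps 64.3% of its exon length, so how reads were assigned there is uncertain. Of the phosphodiesterase level per kb, Pde2a held 57.7% and 56.7% in excitatory libraries, against 64.4% and 56.1% in inhibitory libraries.

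Of the Pde4 enzymes, which break only cyclic AMP and are the targets of rolipram, Pde4a had 12.47 and 12.69 in excitatory libraries, against 10.38 and 10.29 in inhibitory libraries. That is 4.73-fold higher in excitatory libraries (log2 difference 2.24, SE 0.16, adjusted p = 3.58e-04) and 3.26-fold in scaled values (adjusted p = 0.00145), and it passed whichever library was left out. Pde4b had 13.29 and 12.42 in excitatory libraries, against 11.37 and 10.93 in inhibitory libraries, 3.26-fold higher (log2 difference 1.71, SE 0.35, adjusted p = 0.01) and 2.25-fold in scaled values (adjusted p = 0.041), a call lost without excitatory 1, excitatory 2, inhibitory 1 or inhibitory 2 (adjusted p = 0.101, 0.056, 0.13 and 0.176). Pde4d was higher in inhibitory libraries, with 8.37 and 8.58 in excitatory libraries, against 9.50 and 9.59 in inhibitory libraries. Its 2.1-fold difference (log2 difference -1.07, SE 0.23, adjusted p = 0.012) was 3.04-fold in scaled values (adjusted p = 0.00399) and was lost without excitatory 1, inhibitory 1 or inhibitory 2 (adjusted p = 0.055, 0.0771 and 0.0827). Pde4c had only 3.37 and 3.88 in excitatory against 0 and 2.38 in inhibitory libraries and did not pass (adjusted p = 0.0599).

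In the cyclic AMP-specific families Pde7 and Pde8, Pde7b and Pde8b were higher in excitatory and Pde8a in inhibitory libraries. Pde7b had 8.46 and 8.29 in excitatory libraries, against 1.08 and 2.12 in inhibitory libraries, 110-fold higher in excitatory libraries (log2 difference 6.78, SE 0.48, adjusted p = 3.28e-04) and 59-fold in scaled values (adjusted p = 4.84e-04). Both inhibitory values of Pde7b were near the floor, so the size of its fold is uncertain. With a pseudocount of 8 on linear values its log2 difference was 4.93. Pde7a was low throughout, with 3.37 and 2.88 in excitatory against 1.50 and 2.38 in inhibitory libraries, and did not pass (adjusted p = 0.0836). Pde8a had 8.40 and 7.92 in excitatory libraries, against 10.63 and 10.49 in inhibitory libraries, 5.27-fold higher in inhibitory libraries (log2 difference -2.40, SE 0.27, adjusted p = 0.0013) and 7.62-fold in scaled values (adjusted p = 9.08e-04), a call lost without inhibitory 1 or inhibitory 2 (adjusted p = 0.0581 and 0.0533). Its relative Pde8b stood on the other side, with 12.41 and 12.32 in excitatory libraries, against 11.19 and 11.18 in inhibitory libraries. The 2.26-fold difference (log2 difference 1.18, SE 0.14, adjusted p = 0.00157) was 1.56-fold in scaled values (adjusted p = 0.0124), and it passed whichever library was left out.

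Of the remaining tested Pde genes, Pde9a, Pde10a and Pde3b were far higher in inhibitory libraries, Pde6d was higher in excitatory libraries and Pde5a did not pass. Pde9a, specific for cyclic GMP, had 0 and 2.31 in excitatory libraries, against 10.68 and 11.50 in inhibitory libraries, a difference of -9.93 (SE 0.87 and adjusted p = 6.12e-04) that was lost without inhibitory 1 or inhibitory 2 (adjusted p = 0.0556 and 0.0601). It was -8.78 without excitatory 1 and -11.09 without excitatory 2. Pde10a, a dual enzyme known for its abundance in striatal projection neurons, had 4.38 and 3.31 in excitatory libraries, against 9.75 and 9.35 in inhibitory libraries. It was 52.3-fold higher in inhibitory libraries (log2 difference -5.71, SE 0.47, adjusted p = 5.30e-04), 69.8-fold in scaled values, and it passed whichever library was left out. Pde3b, a cyclic AMP enzyme that cyclic GMP inhibits, best known from fat cells, had 0 and 0 in excitatory libraries, against 7.19 and 7.06 in inhibitory libraries, a difference of -7.13 (SE 0.35 and adjusted p = 1.29e-04). Its excitatory pair at the floor has no spread, so leaving out an inhibitory library is a weak check for it. Of the microglial and leukocyte markers 5 of 8 (7 of 8 after scaling) were higher in inhibitory libraries too, and their part was not tested. Pde5a, a cyclic GMP enzyme, was near the floor, with 2.36 and 1.31 in excitatory against 0.48 and 0.79 in inhibitory libraries, and did not pass (adjusted p = 0.0903). Pde6d had 12.40 and 12.39 in excitatory libraries, against 11.52 and 11.43 in inhibitory libraries, 1.89-fold higher in excitatory libraries (log2 difference 0.92, SE 0.14, adjusted p = 0.00331), and did not pass after median-of-ratios scaling (adjusted p = 0.0671).

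**Figure D4:**
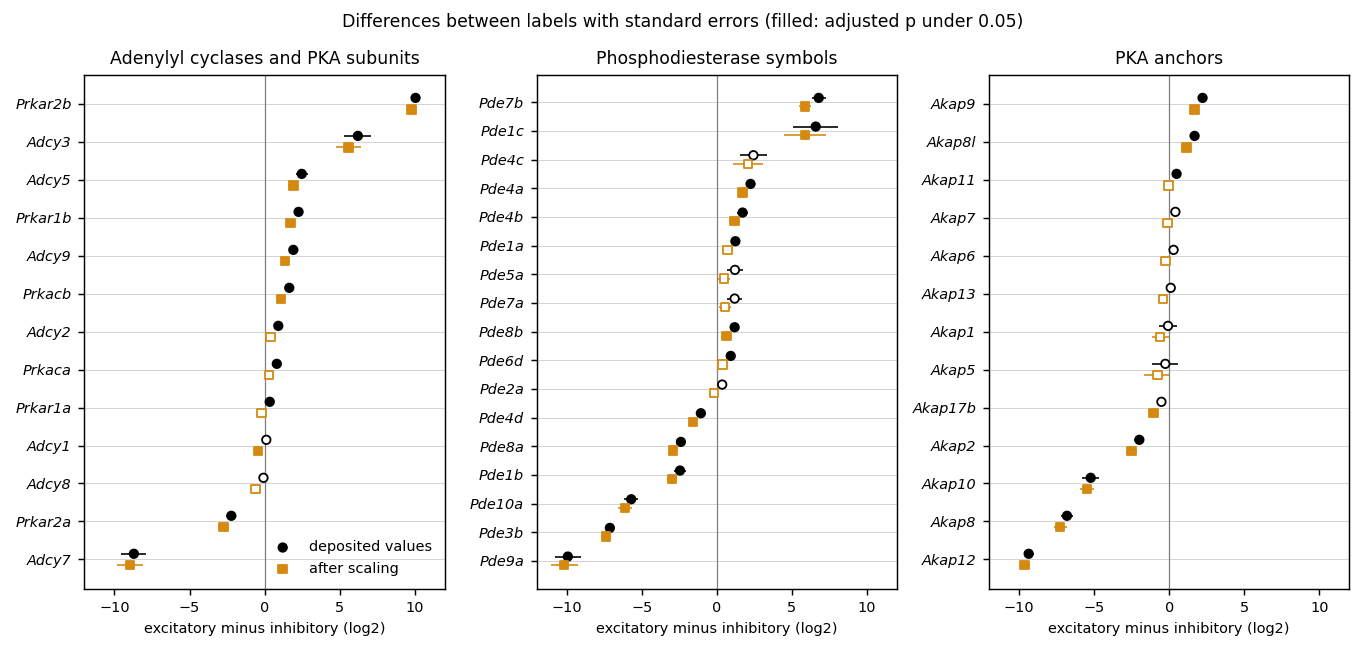
Difference between labels (horizontal axis, log2, excitatory minus inhibitory) for the 43 genes tested, ordered within each panel, with standard errors from limma. Circles are deposited and squares scaled values, filled where the adjusted p is under 0.05, and genes near 0, such as Adcy1, Prkar1a and Pde2a, lie on different sides of 0 in the 2 scalings.

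Anchoring protein genes were called in both directions. Of 13 tested 3 were higher in excitatory libraries (Akap8l, Akap9 and Akap11), 4 were higher in inhibitory libraries (Akap2, Akap8, Akap10 and Akap12) and 6 did not pass. Scaled values gave 2 and 5 calls (53.8%, background 65.7%). The 7 calls in the deposited values are 53.8% of those tested, against the background of 71.8%. Whether the share in either scaling differs from that of other genes was not tested. Akap12, also called gravin, a scaffold of PKA and protein kinase C at the membrane, had 0 and 0 in excitatory libraries, against 9.45 and 9.28 in inhibitory libraries. The difference of -9.36 (SE 0.34 and adjusted p = 9.49e-05) passed in both scalings. The excitatory pair at the floor has no spread, so leaving out an inhibitory library is a weak check here. The difference was -9.28 without inhibitory 1 and -9.45 without inhibitory 2. The gene lies at positions 4266380 to 4359470 of chromosome 10 of GRCm38. Akap8, a nuclear anchor bound to chromatin and the nuclear matrix, had 3.96 and 4.69 in excitatory libraries, against 11.42 and 10.86 in inhibitory libraries, 112-fold higher in inhibitory libraries (log2 difference -6.81, SE 0.4, adjusted p = 2.00e-04). Its neighbour and relative Akap8l had the opposite order, with 10.10 and 10.60 in excitatory libraries, against 8.76 and 8.54 in inhibitory libraries, 3.24-fold higher in excitatory libraries (log2 difference 1.69, SE 0.27, adjusted p = 0.00437). The call of Akap8l was lost without excitatory 2, inhibitory 1 or inhibitory 2 (adjusted p = 0.0528, 0.0767 and 0.0884), while that of Akap8 held without any 1 library. Akap8 spans positions 32303672 to 32321238 and Akap8l positions 32321424 to 32350607 of chromosome 17, on the same strand with 185 bases between them.

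Akap9, a large anchor of the Golgi and centrosome with a form that binds NMDA receptors, had 11.68 and 11.89 in excitatory libraries, against 9.72 and 9.41 in inhibitory libraries. It was 4.65-fold higher in excitatory libraries (log2 difference 2.22, SE 0.21, adjusted p = 7.67e-04) and 3.2-fold in scaled values (adjusted p = 0.00347). Akap10, an anchor that binds PKA of both types, had 3.19 and 1.90 in excitatory libraries, against 7.61 and 7.93 in inhibitory libraries. It was 37.5-fold higher in inhibitory libraries (log2 difference -5.23, SE 0.55, adjusted p = 0.00107), a call lost without inhibitory 1 or inhibitory 2 (adjusted p = 0.0601 and 0.0637). The difference was -5.87 without excitatory 1 and -4.58 without excitatory 2. The excitatory values were near the floor, and with a pseudocount of 8 on linear values the difference was -4.0. Akap2, an anchor linked to actin, had 8.51 and 8.87 in excitatory libraries, against 11.06 and 10.30 in inhibitory libraries, 3.96-fold higher in inhibitory libraries (log2 difference -1.99, SE 0.34, adjusted p = 0.00561), a call lost without excitatory 1, excitatory 2 or inhibitory 1 (adjusted p = 0.128, 0.102 and 0.0672). The gene Pakap, listed separately, overlaps 84.4% of its exon length on the same strand and had 7.35 and 7.65 in excitatory libraries against 9.48 and 8.71 in inhibitory libraries, so how reads were split between them is uncertain. Akap11, an anchor that also binds the kinase GSK3, had 12.46 and 12.72 in excitatory libraries, against 12.17 and 12.02 in inhibitory libraries. This 1.41-fold difference (log2 difference 0.49, SE 0.16, adjusted p = 0.0414) was below the median shift, turned to -0.05 after scaling (adjusted p = 0.838) and was lost without excitatory 1, excitatory 2, inhibitory 1 or inhibitory 2 (adjusted p = 0.0763, 0.144, 0.141 and 0.202).

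Among the anchors that did not pass were those best known at synapses and in heart muscle. Akap5, the postsynaptic anchor of PKA, calcineurin and AMPA receptors, had 6.62 and 7.07 in excitatory libraries, against 5.88 and 8.32 in inhibitory libraries. The inhibitory values enclosed the excitatory ones (log2 difference -0.26, SE 0.87, adjusted p = 0.807). Akap7, a small membrane anchor beside calcium channels, had 11.78 and 11.48 in excitatory against 11.24 and 11.20 in inhibitory libraries (adjusted p = 0.0957), and Akap6, an anchor of the nuclear envelope, had 10.49 and 10.10 in excitatory against 10.01 and 10.01 in inhibitory libraries (adjusted p = 0.3). Akap13, an anchor that is also a guanine nucleotide exchange factor, had 10.52 and 10.42 in excitatory against 10.33 and 10.39 in inhibitory libraries (adjusted p = 0.628), and Akap1, which holds PKA on mitochondria, had 6.13 and 4.88 in excitatory against 5.97 and 5.20 in inhibitory libraries (adjusted p = 0.913). Akap17b had 9.33 and 9.18 in excitatory against 9.94 and 9.60 in inhibitory libraries and passed only after scaling (difference -1.05, adjusted p = 0.0181). For these 6 genes the fold between labels was at most 1.43-fold in the deposited values, and a p above the threshold does not show that levels were equal.

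Genes that feed into or follow this pathway were compared from a separate list of 71, of which 59 were tested. Of these 45 passed (76.3%, background 71.8%), 34 higher in excitatory (background 45.0%) and 11 in inhibitory libraries (background 26.8%). After scaling 40 passed (67.8%, background 65.7%), 23 higher in excitatory (background 32.3%) and 17 in inhibitory libraries (background 33.4%). With 1 library left out 25 to 28 passed: 25 without excitatory 1 or excitatory 2, 28 without inhibitory 1 and 26 without inhibitory 2. The median difference of the 59 was 0.73 (0.52 over all genes tested), and 0.26 after scaling (-0.01 over all genes tested).

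Of 7 G protein α subunits that act on cyclases 4 were higher in excitatory and 2 in inhibitory libraries, with the same counts after scaling (85.7% called, background 71.8% and, scaled, 65.7%). Gnas, which encodes Gs, had 19.54 and 19.49 in excitatory libraries, against 18.39 and 18.48 in inhibitory libraries, 2.12-fold higher in excitatory libraries (log2 difference 1.08, SE 0.042, adjusted p = 9.49e-05). Gnal, which encodes Golf, had 13.13 and 12.93 in excitatory libraries, against 11.00 and 10.49 in inhibitory libraries, 4.87-fold higher (log2 difference 2.28, SE 0.22, adjusted p = 8.61e-04), a call lost without excitatory 1 or excitatory 2 (adjusted p = 0.0631 and 0.058). Gnao1, of an abundant neuronal inhibitory G protein, was 4.2-fold higher in excitatory libraries (12.90 and 12.93 in excitatory against 10.78 and 10.90 in inhibitory libraries), and Gnai3, of a Gi protein, was 13.6-fold higher in inhibitory libraries (8.07 and 7.67 in excitatory against 11.80 and 11.47 in inhibitory libraries). Of the 3 genes of PKA inhibitor peptides, Pkia had 12.03 and 12.13 in excitatory libraries, against 10.68 and 11.36 in inhibitory libraries (log2 difference 1.06, SE 0.27, adjusted p = 0.0206), a call lost after scaling (adjusted p = 0.133) and without excitatory 1 or excitatory 2 (adjusted p = 0.2 and 0.222). Pkig had 15.62 and 15.67 in excitatory libraries, against 15.38 and 15.09 in inhibitory libraries (log2 difference 0.41, SE 0.11, adjusted p = 0.0288), which turned to -0.13 after scaling (adjusted p = 0.47) and was lost without excitatory 1, excitatory 2 or inhibitory 2 (adjusted p = 0.222, 0.255 and 0.0732). Pkib had 10.90 and 11.08 in excitatory libraries, against 11.07 and 11.41 in inhibitory libraries. It did not pass in the deposited values (log2 difference -0.25, SE 0.2, adjusted p = 0.314) and was -0.79 after scaling (adjusted p = 0.0203).

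The 7 tested genes of the next list were other cyclic AMP effectors, the Rap GTPases they act on and Rap1gap, a GTPase-activating gene for Rap. Of these 2 were higher under each label, which is 57.1% called (background 71.8%). After scaling 2 were higher in excitatory and 3 in inhibitory libraries (71.4%, background 65.7%). Rap1gap was among those higher in excitatory libraries (log2 difference 2.5, SE 0.33). The exchange factor gene Rapgef4, which encodes the neuronal EPAC form, had 17.12 and 17.03 in excitatory libraries, against 16.16 and 16.18 in inhibitory libraries (log2 difference 0.91, SE 0.057, adjusted p = 2.35e-04), and Rapgef3, which encodes its relative, had 8.31 and 8.05 in excitatory libraries, against 12.10 and 11.63 in inhibitory libraries (log2 difference -3.69, SE 0.26, adjusted p = 3.18e-04). Of 10 tested CREB-family and coactivator genes 7 were higher in excitatory and 2 in inhibitory libraries, which is 90.0% called where 71.8% of all genes were, and 6 and 2 after scaling (80.0%, background 65.7%). Creb1 had 13.05 and 12.90 in excitatory libraries, against 10.91 and 10.15 in inhibitory libraries, 5.45-fold higher in excitatory libraries (log2 difference 2.45, SE 0.29, adjusted p = 0.00163), a call lost without excitatory 1 or excitatory 2 (adjusted p = 0.0916 and 0.0844). Crem, which encodes activators and the cyclic AMP-induced repressor ICER, had 8.29 and 7.72 in excitatory libraries, against 14.77 and 15.21 in inhibitory libraries, 127-fold higher in inhibitory libraries (log2 difference -6.98, SE 0.28, adjusted p = 9.49e-05). Creb3, of a related factor held in membranes, was 3.81-fold higher in excitatory libraries (12.71 and 12.56 in excitatory against 10.73 and 10.69 in inhibitory libraries).

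Of 16 tested anchors without an Akap symbol 9 were higher in excitatory and 3 in inhibitory libraries (75% called, background 71.8%), and 5 and 4 after scaling (56.2%, background 65.7%). Arfgef2 had 0 and 0 in excitatory libraries, against 8.49 and 8.80 in inhibitory libraries (adjusted p = 9.49e-05), and Acbd3 had 11.27 and 11.25 in excitatory libraries, against 7.15 and 7.48 in inhibitory libraries (log2 difference 3.95, SE 0.23, adjusted p = 2.07e-04). Of 13 PKA substrates and phosphatases 9 were higher in excitatory libraries and none in inhibitory libraries (69.2% called, background 71.8%), against 5 and 3 after scaling (61.5%, background 65.7%). Ppp1r1b, which encodes the phosphatase inhibitor DARPP-32, had 11.59 and 11.97 in excitatory libraries, against 10.49 and 9.94 in inhibitory libraries, 2.94-fold higher (log2 difference 1.56, SE 0.27, adjusted p = 0.00595), and lost its call without excitatory 1, excitatory 2, inhibitory 1 or inhibitory 2 (adjusted p = 0.0908, 0.121, 0.0544 and 0.0811). Ppp3cc, a calcineurin catalytic gene, had 12.33 and 12.77 in excitatory libraries, against 6.54 and 7.58 in inhibitory libraries, 45-fold higher (log2 difference 5.49, SE 0.42, adjusted p = 4.19e-04), a call lost without excitatory 2 (adjusted p = 0.0539). Of the genes of cyclic nucleotide export, Abcc4 had 5.50 and 5.43 in excitatory libraries, against 7.75 and 7.89 in inhibitory libraries (log2 difference -2.35, SE 0.29, adjusted p = 0.00192). Its relative Abcc5 was also higher in inhibitory libraries (adjusted p = 0.016), a call lost without excitatory 1, excitatory 2, inhibitory 1 or inhibitory 2 (adjusted p = 0.099, 0.176, 0.194 and 0.112).

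Listing at 0 under one label and high values under the other, as in Prkar2b and Akap12, was also found in other genes. With at least 8 in both excitatory libraries, 393 of 24421 genes were at 0 in both inhibitory libraries, and 1 of the 55 members, Prkar2b. With at least 8 in both inhibitory libraries, 347 of 24421 genes were at 0 in both excitatory libraries, and 1 of the 55 members, Akap12. The groups did not overlap in 40 of 43 tested members (93.0%) and in 86.4% of all genes tested.

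The 250 bases before each annotated start of a gene, of which there can be several, were searched on both strands for the cyclic AMP response element TGACGTCA, to which CREB binds, and for its shorter core TGACG, in the RefSeq promoter table (GRCm38.p6), which held 45 of the 55 members. The core, which the full element contains, was present for 11 of 45 members (24.4%) and for 19.8% of 27025 genes. The full element was present for 1 member, Prkar1a, and for 1.77% of genes. In Prkar1a it ends 41 bases before one of several annotated starts, and 30 bases around it (chr11:109650889-109650918, plus strand) are shown with the element in capitals.
Prkar1a: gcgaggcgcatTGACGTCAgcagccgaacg
The match describes letters only, and binding was not measured.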

How the data were processed

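Per the labels' protocols, 100 picked cells per library were lysed for SMART-seq v4 cDNA and Nextera XT libraries, and neither kit is described as marking strand. The submitters' processing notes name TopHat, edgeR and mm10, with no versions, roles or order; neither counter nor annotation is given in the sources used here. The authors' deposited tables hold log2 values for 24421 genes. Powers of 2 of the low values fell at whole multiples of 1 spacing per library (1.296, 1.231, 0.72 and 0.871 for excitatory 1 and 2 and inhibitory 1 and 2), within 0.004 to 0.043 of a whole number, and not after subtracting 1 (0.15 to 0.433). The scale was therefore taken as log2 of weighted reads with a floor at 0. Depth is the linear sum divided by the spacing, an estimate, and no counting interval was computed.

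In R 4.3.3, limma 3.58.1 with a mean-variance trend fitted all 13619 genes that reached a value of 1 in 2 or more libraries (prior 2.56 and residual 2 degrees of freedom), with Benjamini-Hochberg adjustment, and was tested on simulated data. The tests were planned for counts or log2 values, and the log2 plan was used. Exon lengths and coordinates are from GENCODE M21, where all 55 symbols matched. Alternatives were scaling, pseudocounts, filters, the variance trend, each library left out (the lone library is then assumed to vary like the other label) and a replicate block; a pseudocount of 1 and shares without length were added after the data were seen. The members and lists were chosen with earlier results of these data known. Genes were named by rule: called members with at least 8 in both libraries of the higher label, up to 30 by p, all PKA and detected Adcy genes, 6 set pathway genes and the next 8 by p. Other members, the sequences shown, overlap partners, markers and the pathway genes Pkib, Pkig, Rap1gap, Abcc4 and Abcc5 were named after their values were seen.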

Additional observations from a re-analysis of the deposited data

How the results depend on the processing

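Of 43 tested members, 31 kept their direction and side of the threshold under median-of-ratios scaling and 33 under upper-quartile scaling. All 43 did so with pseudocounts of 0.5 and 1 and with no filter, 42 with a pseudocount of 8, 40 of 40 with a filter at 5, 40 without the variance trend and 25 to 30 without 1 library. The cause of these changes was not tested. Without 1 library, 6103 to 6551 of all genes passed (3530 to 4241 higher in excitatory and 2310 to 2627 in inhibitory libraries), 17 to 20 members (9 to 12 and 5 to 10) and 25 to 28 other pathway genes (19 to 20 and 6 to 9). Other pathway genes higher in inhibitory libraries numbered 11 in the deposited values and 17 under either scaling. Without division by length, the type II share was 3.14% in inhibitory libraries, and the regulatory to catalytic ratio was 1.77 in excitatory and 3.20 in inhibitory libraries (2.73 and 4.10 with it).

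Differences turned negative under median-of-ratios and upper-quartile scaling for Adcy1 (-0.43 and -0.41, adjusted p = 0.0181 and 0.0142), Akap11 (-0.05 and -0.03), Akap13 (-0.43 and -0.42), Akap6 (-0.25 and -0.24), Akap7 (-0.13 and -0.11), Pde2a (-0.18 and -0.17), Prkar1a (-0.20 and -0.19) and Slc17a7 (-0.24 and -0.22); of these only Adcy1 passed there. Without 1 library, differences changed sign for Adcy8 (range -0.26 to 0.11), Akap1 (-0.70 to 0.54, and 0.31 in between), Akap5 (-1.47 to 0.96) and Gad2 (-0.40 to 0.25), and none passed.

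Same-numbered libraries share only a number in the labels, and their deviations from the label means correlated at -0.008 over 10097 genes. With the replicate number as a block, 9782 genes passed (6094 higher in excitatory and 3688 in inhibitory libraries), 32 members (20 and 12) and 45 other pathway genes (34 and 11). The block ended the call of Akap11 (adjusted p = 0.0588) and added Pde2a (0.0459) and Pde4c (0.0195). The floor of the deposited scale limits the genes listed at 0, since the weight of a single read in inhibitory libraries (0.72 and 0.871) falls below it.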
